A study of Mus musculus with 9 samples.

Results

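Neutrophils carry their defense proteins in granules that form in a fixed sequence, and the 7 genes described here encode contents of the secondary (specific) and tertiary (gelatinase) granules: Ltf, Camp, Ngp, Lcn2, Mmp8, Mmp9 and Cd177. They were taken by name from the 55322 genes of the expression table, where each name stood once, and this set was put together with earlier results of these data known. RNA was sequenced from 3 libraries per group of BM B cells with CD11b (CD11b+ B cells) and without it (CD11b- B cells), sorted 48 h after WT C57BL/6 mice received LPS (5 mg/kg, i.p.), and of peritoneal macrophages (PMs, CD11b+F4/80+) of naive WT mice. LPS is a component of the bacterial outer membrane that is used to mimic an infection, and CD11b, encoded by Itgam, is an integrin chain that marks myeloid cells. Both B cell groups came from LPS-treated mice, and the only naive cells were the PMs, so no comparison isolates the effect of LPS. BM cells with CD3, CD4, CD8, Gr-1, NK1.1 or TER119 on their surface had been depleted before the sort, and Gr-1 antibody binds Ly6G, a surface protein of neutrophils. The study's convention for error bars marks the 3 libraries of a group as biological replicates, while the age of the mice, and whether a library was 1 mouse or a pool, are not stated in the sources used here.

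Secondary granule genes are transcribed while neutrophil precursors mature in the BM, at the myelocyte and metamyelocyte stages, after the primary granule genes and largely before the cells leave for the blood. The transcription factor C/EBPε is known to be needed for that step. In the BM these transcripts therefore serve as markers of maturing neutrophils, although other cells make some of the same proteins, as macrophages do with the gelatinase MMP-9.

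The DNA before the start of these genes is shown because several of these genes are known targets of C/EBP factors. RefSeq promoter sequences (GRCm38.p6) were matched for 6 of the 7 genes, all but Mmp9. Within 250 bases before the RefSeq start, a C/EBP-type stretch, written TTNNGNAA and searched on both strands, was present in 5 of the 6 promoters, and in 36.8% of 32851 promoters of the same length. The letters GAGGAA, of the kind bound by PU.1, were present on either strand in 4 of the 6 and in 23.3% of the 32851. Such a match describes letters and is not a binding site. The lines below give 120 bases that end before the annotated transcripts of 4 genes, 5′ to 3′ along the gene, and capitals mark the C/EBP-type matches.
Ltf, chr9:111019151-111019270 (plus strand): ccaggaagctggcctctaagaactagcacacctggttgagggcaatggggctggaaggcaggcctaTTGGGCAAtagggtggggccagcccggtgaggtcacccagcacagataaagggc
Ngp, chr9:110419627-110419746 (plus strand): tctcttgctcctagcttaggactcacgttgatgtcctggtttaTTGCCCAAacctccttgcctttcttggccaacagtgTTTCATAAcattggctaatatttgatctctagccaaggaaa
Mmp8, chr9:7558309-7558428 (plus strand): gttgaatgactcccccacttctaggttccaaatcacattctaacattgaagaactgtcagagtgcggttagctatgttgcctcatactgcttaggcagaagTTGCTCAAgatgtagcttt
Cd177, chr7:24760312-24760431 (minus strand): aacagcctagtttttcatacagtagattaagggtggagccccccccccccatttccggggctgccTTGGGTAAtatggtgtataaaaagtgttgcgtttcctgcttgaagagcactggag
Of the 4 genes shown, Ngp had 2 such matches within the stretch and the other three genes had 1 each. Camp was the gene without a C/EBP-type match in its 250 bases, and Lcn2 had 1. By the GENCODE M21 gene positions used below, however, all 250 bases of Lcn2 and 161 of those of Camp lie within the gene. The same holds for 61 bases of Ngp and 21 of Ltf, so the counts over 250 bases include transcribed sequence.

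Of the 7 genes, 4 lie on chromosome 9, where 5.37% of the tested genes lie. Positions here are those of GENCODE M21 on GRCm38, looked up by gene identifier. Camp (chr9:109847379-109849617, minus strand), Ngp (chr9:110419747-110423012, plus strand) and Ltf (chr9:111019271-111042767, plus strand) follow each other with gaps of 570130 and 596259 bases, and Mmp8 (chr9:7558456-7568485, plus strand) lies at the other end of the chromosome. Lcn2 (chr2:32384633-32388252, minus strand) and Mmp9 (chr2:164940780-164955850, plus strand) are on chromosome 2, and Cd177 (chr7:24743983-24760311, minus strand) is on chromosome 7. No other annotated gene overlaps any of the 7, so reads counted on them cannot come from an overlapping or antisense gene of that annotation.

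Values are FPKM, reads scaled by exon length and by the reads on genes of the library, which allows levels of different genes to be compared. The libraries held 18014658 to 35251215 reads on genes, with 29371573, 26174718 and 35251215 in replicates 1, 2 and 3 of CD11b+ B cells and 32056102 to 34895579 in the CD11b- libraries. The sort marker and a B cell identity gene were read first. Ms4a1, which encodes the B cell surface protein CD20, was at 272 to 635 FPKM in the 6 B cell libraries and at 3.41 to 5.57 in PMs. Itgam was at 1.92, 1.31 and 1.51 FPKM in the CD11b+ libraries and at 0.40, 0.251 and 0.869 in the CD11b- libraries, against 251 to 358 in PMs. Its difference between the B cell groups was 0.79 ± 0.25 (SE, n = 3 per group) on the log2(FPKM + 1) scale and did not pass the test (limma, adjusted p = 0.50). Among the CD11b+ libraries, replicate 3 stands apart for the granule genes, so calls between the B cell groups are also given without it. Replicate 3 was singled out by the values of the tested genes, which were lowest there. More calls without it are therefore no independent support for a difference.

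The antimicrobial proteins of the secondary granules gave the highest levels. Ltf, which encodes the iron-binding protein lactoferrin, was at 26.5, 85.4 and 3.78 FPKM in replicates 1, 2 and 3 of CD11b+ B cells. In CD11b- B cells it was at 0.0261, 0.0166 and 0.0452 FPKM, which rests on 3, 2 and 5 reads, and in PMs at 0.177, 0.0893 and 0.129 FPKM. Every CD11b+ library was above every library of the other groups, and PMs in turn were above CD11b- B cells.

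Camp encodes cathelicidin, the precursor of an antimicrobial peptide. It was at 31.8, 103 and 7.82 FPKM in CD11b+ B cells, at 0.0791, 0.378 and 0.247 in CD11b- B cells, and at 0.513, 0.0903 and 0.523 in PMs. Again the CD11b+ libraries were all above the rest, while CD11b- B cells and PMs overlapped.

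Ngp encodes a protein of the same cathelicidin-related family and was the most abundant of the 7 genes in each B cell library. Its FPKM was 135, 340 and 24.1 in CD11b+ B cells, 0.221, 0.539 and 0.306 in CD11b- B cells, and 0.727, 0.140 and 0.203 in PMs. The lowest CD11b+ library was 33.2 times the highest PM library and 44.8 times the highest CD11b- library, and the latter groups overlapped. By its mean, Ngp ranked 288 of the 34551 genes with a read in CD11b+ B cells.

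Lcn2 encodes lipocalin 2, which binds the iron carriers that bacteria secrete. It was at 15.2, 41.2 and 2.0 FPKM in CD11b+ B cells and at 1.88, 0.914 and 2.97 in PMs, so that replicate 3 of the CD11b+ libraries lay within the range of the PMs. In CD11b- B cells Lcn2 was at 0.0343 and 0.0437 FPKM in replicates 1 and 2 and had no read in replicate 3, which allows up to 0.0357 FPKM (3 reads). The order of the groups was thus CD11b+ B cells, PMs and CD11b- B cells by the mean, with the first pair overlapping.

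In CD11b+ B cells both metalloproteinases were at lower levels than the other 5 genes. Mmp8, the neutrophil collagenase, was at 2.33, 5.81 and 0.374 FPKM in CD11b+ B cells and at 0.0124, 0.0355 and 0.0257 in CD11b- B cells. In PMs it had no read in replicates 1 and 2, which allows up to 0.0687 and 0.0424 FPKM, and was at 0.347 in replicate 3. The CD11b+ libraries were above all others, although the lowest of them exceeded the PM library with Mmp8 reads by a factor of only 1.08. PMs and CD11b- B cells overlapped.

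Mmp9, the gelatinase of the tertiary granules, had the opposite order between CD11b+ B cells and PMs. It was at 9.10, 9.56 and 9.21 FPKM in PMs, at 2.94, 5.68 and 0.337 in CD11b+ B cells, and at 0.0254, 0.0162 and 0.00881 in CD11b- B cells. The 3 groups did not overlap. The SD of the PM libraries was 0.240 FPKM around a mean of 9.29, whereas that of the CD11b+ libraries was 2.67 around a mean of 2.99.

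Cd177 encodes a surface receptor that neutrophils store in secondary granules and that binds proteinase 3 and PECAM-1. Its FPKM was 8.80, 15.7 and 1.32 in CD11b+ B cells, 0.821, 3.80 and 1.68 in PMs, and 0.0211, 0.0101 and 0.0110 in CD11b- B cells. As for Lcn2, replicate 3 of the CD11b+ libraries lay within the range of the PMs, and both groups were above CD11b- B cells.

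**Figure D1:**
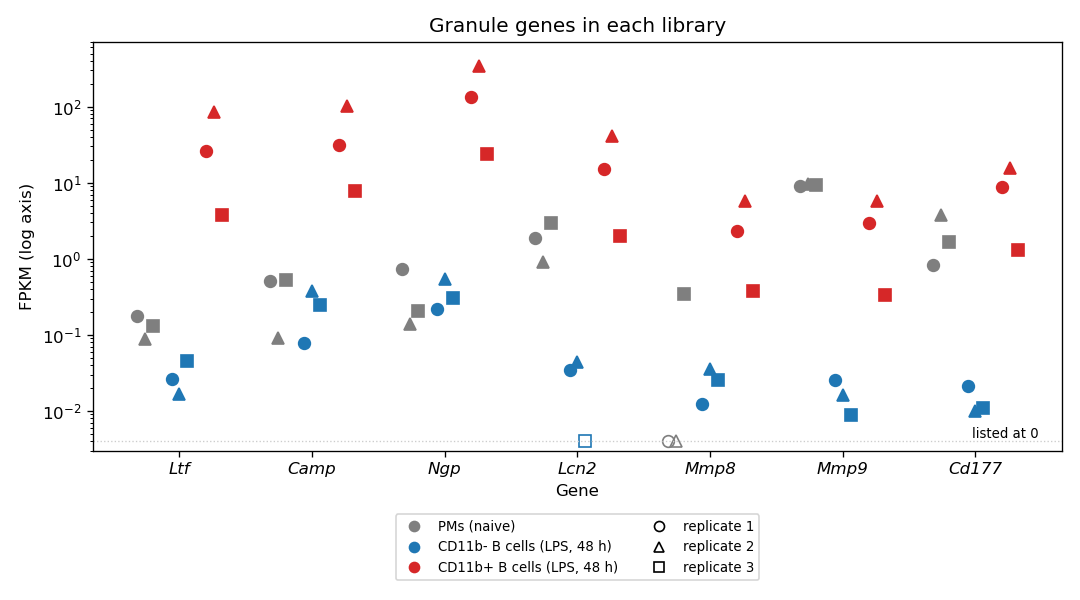
FPKM (log axis) of the 7 granule genes in each library; colors are the groups, symbols the replicates, and open symbols on the dotted line are libraries with no read. The CD11b+ libraries are above the CD11b- libraries for each gene, replicate 2 is the highest and replicate 3 the lowest of them, and Mmp9 is highest in PMs, at 9.10 to 9.56 FPKM.

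The comparison of CD11b+ with CD11b- B cells asks what separates the B cells that carried the myeloid integrin from those that did not, 48 h after LPS. In CD11b+ B cells all 7 granule genes were above CD11b- B cells without overlap between the libraries, where 8.63% of the 21778 tested genes were. The median difference of the 7 genes was 3.63 on the log2(FPKM + 1) scale, against 0.03 over all tested genes. However, the spread among the 3 CD11b+ libraries was wide, and 0 of the 7 passed the threshold of the main test (limma with Benjamini-Hochberg adjustment over all tested genes, adjusted p below 0.05), which 0.0689% of the genes passed as higher. All 7 had an unadjusted p below 0.05, as did 4.65% of the genes in that direction. The closest to the threshold was Ngp, with a difference of 6.29 ± 0.80 (SE, n = 3 per group; limma, adjusted p = 0.0563). For Camp the difference was 4.66 ± 0.75 (limma, adjusted p = 0.118), and for Ltf 4.45 ± 0.88 (limma, adjusted p = 0.214). The other four genes, Lcn2, Cd177, Mmp9 and Mmp8, had differences of 3.63, 2.84, 1.69 and 1.62 with adjusted p from 0.303 to 0.510. The exact two-sided permutation test of the mean FPKM gave p = 0.1 for each gene, the smallest that 3 against 3 libraries allow.

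The call depended on the processing and on a single library. Within limma, a pseudocount of 0.1 called 3 of the 7 genes, against 0.156% of genes. The edgeR and DESeq2 runs changed scale, normalization and gene filter along with the model, so these parts cannot be told apart. With edgeR on the whole reads behind the FPKM, 6 of the 7 genes were called higher (edgeR quasi-likelihood test, adjusted p from 0.0169 to 0.0482), against 0.269% of genes, and Mmp8 was not (adjusted p = 0.0561). With DESeq2 on the same reads all 7 were called, against 1.45% of genes. Without CD11b+ replicate 2, the highest library, limma called 0, and the differences were 5.44 for Ngp, 3.79 for Camp and 3.48 for Ltf. Without CD11b+ replicate 3, limma called 5 of the 7, against 0.187% of genes. These were Ltf, Camp, Ngp, Lcn2 and Cd177, with adjusted p from 0.00271 to 0.0253, while Mmp9 had 0.0509 and Mmp8 0.0894.

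The contrast in reads was large for each gene. Pooled over the libraries of a group, Ltf had 10854 reads in CD11b+ and 10 in CD11b- B cells, a ratio of 1199 per read on genes (exact 95% interval 652 to 2502). Ngp had 16770 and 44 reads, a ratio of 421 (314 to 580), and Camp 2958 and 18, a ratio of 182 (115 to 307). For Lcn2 the ratio was 660 (320 to 1642), for Cd177 562 (219 to 2066), for Mmp9 161 (73.6 to 440) and for Mmp8 104 (47.7 to 286). Replicate 2 supplied much of these reads, 7712 of the 10854 of Ltf. Without it the ratio was 488 for Ltf, 300.1 for Lcn2, 336 for Cd177, 208 for Ngp, 79.1 for Camp, 90.0 for Mmp9 and 51.2 for Mmp8, and without replicate 3 it was 161 (Mmp8) to 1877 (Ltf). These intervals cover counting error only, since reads of amplified cDNA are not independent molecules, and they leave out the spread between libraries. In bulk RNA, fewer cells with a transcript and less of it in each cell cannot be told apart.

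PMs are CD11b+ cells of another lineage, and the comparison with them sets the levels in CD11b+ B cells beside those in a myeloid cell. Lineage, tissue and LPS treatment differ together between these groups and cannot be told apart. Relative to PMs, CD11b+ B cells were higher in 3 of the 7 genes, namely Ngp, Camp and Ltf, and lower in 1, Mmp9. Of the 22102 tested genes 21.5% were called higher and 8.78% lower. Libraries did not overlap for 4 higher genes, the same 3 and Mmp8 (34.3% of genes), and for 1 lower gene, Mmp9 (12.4%). The difference was 6.30 ± 0.81 for Ngp (SE, n = 3 per group; limma, adjusted p = 0.000856), 4.52 ± 0.77 for Camp (0.00337) and 4.31 ± 0.89 for Ltf (0.00830). For Mmp9 the difference was -1.65 ± 0.53 (limma, adjusted p = 0.0496), close to the threshold. Lcn2 (2.18 ± 0.85), Mmp8 (1.51 ± 0.54) and Cd177 (1.34 ± 0.71) had adjusted p of 0.0909, 0.0705 and 0.196. Without CD11b+ replicate 3, 6 genes were called higher, against 21.7% of genes, and Mmp9, with a difference of -1.0, was no longer called lower (limma, adjusted p = 0.0502). Without CD11b+ replicate 2 the same 3 genes were called higher (14.7% of genes) and Mmp9 lower (-2.16, 6.3% of genes). The differences then were 5.46 for Ngp, 3.65 for Camp and 3.34 for Ltf, and 1.32, 0.95 and 0.74 for Lcn2, Mmp8 and Cd177. The call of Mmp9 was also lost without each of the PM libraries (differences of -1.63 to -1.66) and without CD11b+ replicate 1 (-1.78). FPKM of PMs and B cells are set against different RNA pools: the median difference over all genes was 0.25, and 0.11 after median-ratio scaling, when 2766 genes were called higher and 2661 lower in place of 4760 and 1940. The same 4 members were called in the same directions after that scaling, Mmp9 with a difference of -2.10.

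CD11b- B cells were lower than PMs in 3 of the 7 genes, against 11% of 20985 tested genes. The difference was -3.34 ± 0.24 for Mmp9 (SE, n = 3 per group; limma, adjusted p = 4.4e-05), -1.50 ± 0.36 for Cd177 (0.0142) and -1.45 ± 0.30 for Lcn2 (0.00766). Libraries did not overlap for 4 genes, these 3 and Ltf, against 15.2% of genes. Without CD11b- replicate 1, 2 or 3 the difference of Cd177 stayed at -1.49 to -1.50, and its call was lost in each case, at an adjusted p of up to 0.0592. Camp (-0.15), Ltf (-0.14), Mmp8 (-0.11) and Ngp (0.02, a sign that turned with median-ratio scaling, -0.11) were not called. With the 6 to 44 reads that these genes had in CD11b- B cells, small differences were not detectable. The 3 comparisons share libraries by pairs and are not independent of each other.

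**Figure D2:**
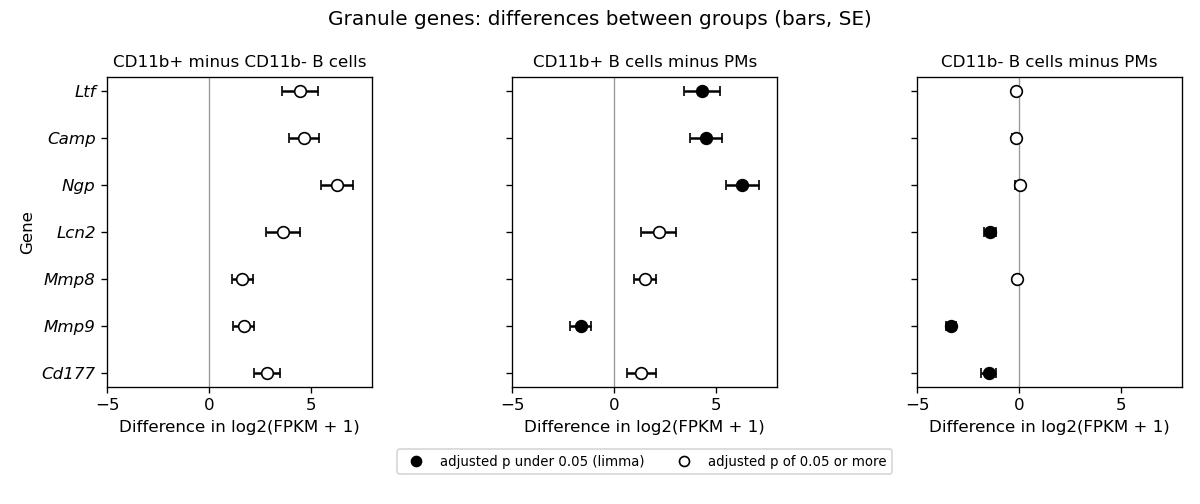
Difference in log2(FPKM + 1) between groups for the 7 genes, with SE (bars, n = 3 libraries per group) and filled points where limma's adjusted p was below 0.05. In the left panel no point is filled although all lie above 0; in the middle panel Ngp, Camp and Ltf are filled above 0 and Mmp9 below it; in the right panel Lcn2, Mmp9 and Cd177 are filled below 0.

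The 3 CD11b+ libraries ranked the same way for all 7 genes, with replicate 2 above replicate 1 above replicate 3. This order was shown by 16.8% of the 21778 tested genes, and by 13.3% of the 1879 genes whose CD11b+ libraries were all above the CD11b- libraries. Replicate 2 exceeded replicate 3 by a factor of 22.6 for Ltf (exact 95% counting interval 20.5 to 24.9), 20.6 for Lcn2 (17.7 to 24.0) and 11.9 for Cd177 (9.96 to 14.4), which was the smallest of the 7 ratios. Ltf and Lcn2 had intervals above those of Camp (11.4 to 15.2), Ngp (13.2 to 15.0) and Cd177. These intervals leave out amplification, and whether the ratios differ between genes beyond it was not tested. Replicate 1 exceeded replicate 3 by 4.07 (Camp) to 8.74 (Mmp9) times, and replicate 2 exceeded replicate 1 by 1.79 (Cd177) to 3.23 (Camp) times. The coefficient of variation over the 3 libraries was 83.7% (Cd177) to 109% (Ltf). Depth had another order, as replicate 3 was the deepest library and held 2100 reads of the 7 genes, against 10619 in replicate 1 and 25520 in replicate 2.

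**Figure D3:**
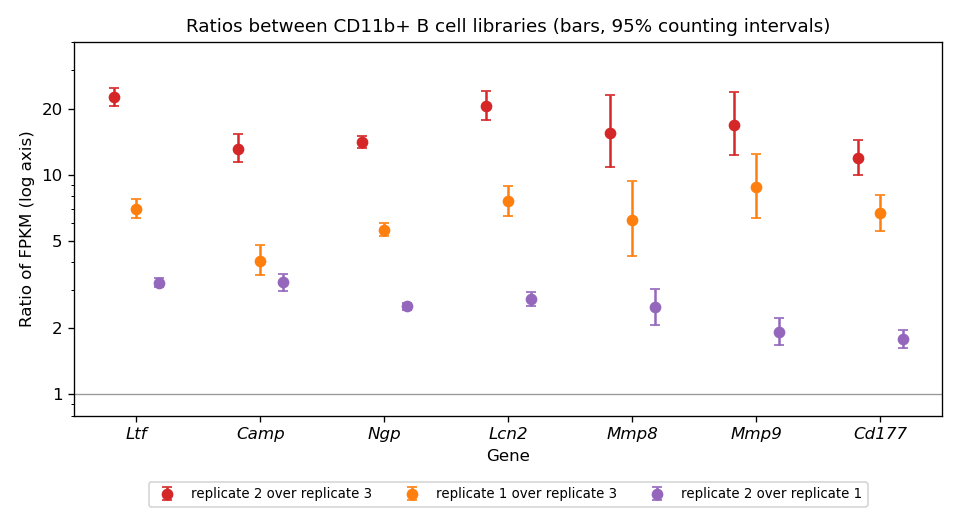
Ratio of FPKM (log axis) between pairs of CD11b+ B cell libraries for each gene, with exact 95% intervals that cover counting error only. Replicate 2 exceeds replicate 3 by 11.9 to 22.6 times, replicate 1 exceeds replicate 3 by 4.07 to 8.74 times, and no interval reaches 1.

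Ngp held the largest share of the 7 genes in each CD11b+ library, and the shares of the others moved between libraries. Ngp took 60.7%, 57.0% and 60.7% of their summed FPKM in replicates 1, 2 and 3, Camp 14.3%, 17.2% and 19.7%, and Ltf 11.9%, 14.3% and 9.51%. Lcn2 held 5.03% to 6.90%, Cd177 2.64% to 3.95%, Mmp8 0.941% to 1.05% and Mmp9 0.846% to 1.32%. The sum moved from 39.8 FPKM in replicate 3 to 223 in replicate 1 and 597 in replicate 2, while Ngp, Camp, Ltf, Lcn2 and Cd177 kept that order from the highest to the lowest in each of the 3 libraries. In PMs the make-up was another one, with Mmp9 at 61.2% to 68.8% and Ngp at 0.960% to 5.50% of a sum of 13.2 to 15.1 FPKM. In CD11b- B cells Ngp and Camp again led, with 47.6% to 52.7% and 18.9% to 38.3%, of a sum of 0.419 to 1.04 FPKM that rests on 23 to 45 reads per library.

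**Figure D4:**
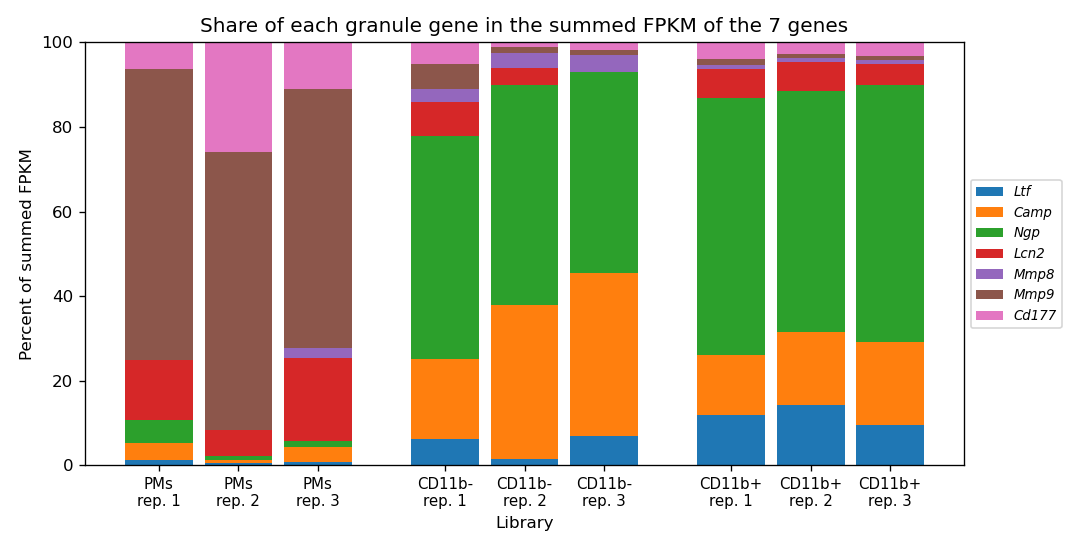
Share of each gene (stacked bars, percent) in the summed FPKM of the 7 genes in each library. Ngp holds 57.0% to 60.7% in CD11b+ B cells and Mmp9 61.2% to 68.8% in PMs.

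The wider program of neutrophil granules was read from lists of known genes. Of 18 other genes of secondary, tertiary or secretory granules, 16 were tested between CD11b+ and CD11b- B cells, 15 had a difference above 0, and the median difference was 0.75. Limma called 0 of them in either direction, with 9 higher at an unadjusted p below 0.05, while edgeR called 1 higher of the 11 it tested and DESeq2 5 of 17. Without CD11b+ replicate 3 limma called 2, Chil3 and Hp. Chil3, which encodes a chitinase-like protein of neutrophils and macrophages, was at 42.7, 63.5 and 4.54 FPKM in CD11b+ B cells and at 0.0734 to 0.0878 in CD11b- B cells (4.53 ± 0.80; limma, adjusted p = 0.147). Hp, which encodes the hemoglobin-binding protein haptoglobin, was at 11.3, 22.6 and 0.936 FPKM against 0.194 to 0.522. Fcnb (ficolin B) was at 3.31 and 7.42 FPKM in replicates 1 and 2 and had no read in replicate 3, and Fpr1, a receptor for formyl peptides, was at 2.06, 3.32 and 0.0214 FPKM. In these 4 genes, too, replicate 2 was the highest and replicate 3 the lowest, as in 9 of the 18. Against PMs, 9 of the list's 16 tested genes were called lower and 0 higher.

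Primary granule genes are transcribed by earlier precursors. Of the 8 listed, 7 were tested and limma called 0, with 3 higher at an unadjusted p below 0.05, while edgeR called 1 higher of the 4 it tested and DESeq2 3 of 7. Without CD11b+ replicate 3 limma called 2, Elane and Prtn3. Elane (neutrophil elastase) was at 19.5, 8.54 and 4.21 FPKM in CD11b+ B cells and reached 0.0305 in CD11b- B cells (3.32 ± 0.46; limma, adjusted p = 0.0764; edgeR, adjusted p = 0.0125). Mpo (myeloperoxidase) was at 8.51 and 2.79 FPKM in replicates 1 and 2 with no read in replicate 3, Prtn3 (proteinase 3) at 5.19, 4.10 and 0.884, and Ctsg (cathepsin G) at 3.43, 0.555 and 0.0275. Replicate 1 was the highest for these 4 genes, and 1 of the 8 listed, Prss57, had replicate 2 above 1 above 3, an order shown by 16.8% of all tested genes.

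Among the regulators of granule genes limma called 0 of 7 between the B cell groups, edgeR 0 of the 4 it tested and DESeq2 0 of 6, 0 had an unadjusted p below 0.05, and the median difference was 0.08. Cebpe, which encodes C/EBPε, was at 0.466 and 0.523 FPKM in CD11b+ replicates 1 and 2 with no read in replicate 3, and reached 0.0503 in CD11b- B cells (0.36 ± 0.18; limma, adjusted p = 0.679). Its relatives Cebpa and Cebpd were at low levels that did not overlap between the B cell groups: Cebpa at 0.0517 to 0.261 FPKM in the CD11b+ and 0 to 0.0355 in the CD11b- libraries, and Cebpd at 0.30 to 0.796 and 0.153 to 0.266. Cebpb was at 0.0679 to 0.264 and 0 to 0.12 FPKM, and all 3 were at 5.42 to 62.6 in PMs. Spi1, which encodes PU.1, was at 32.7 to 42.1 FPKM in CD11b+ and 40.2 to 51.1 in CD11b- B cells. Gfi1, a repressor active in both neutrophil and lymphocyte precursors, was at 1.53 to 3.27 and 2.06 to 4.83 FPKM, and Runx1, a factor of blood cell precursors, at 4.59 to 5.93 and 5.56 to 7.69.

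Of 11 genes for receptors, partners and inhibitors of the 7 proteins, limma called 0 of the 6 it tested between the B cell groups and edgeR and DESeq2 0 of 7 each, with 1 lower gene at an unadjusted p below 0.05 and a median difference of 0.13. Pecam1, the partner of CD177, was at 33.4 to 39.6 FPKM in CD11b+ and 43.9 to 52.1 in CD11b- B cells, and at 0.181 to 0.899 in PMs. Cd44, a surface docking protein of MMP-9, was at 14.9 to 20.1 FPKM in CD11b+ and 13.3 to 13.9 in CD11b- B cells, and the inhibitor gene Timp2 at 0.996 to 1.25 and 0.248 to 1.32, against 228 to 283 in PMs.

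Of 12 neutrophil markers outside the granules, limma called 3 higher in the CD11b+ libraries than in the CD11b- libraries and 0 lower, with a median difference of 0.96, and for 7 the groups did not overlap. With edgeR the same 3 of the 10 tested were called higher, and with DESeq2 7 of 12. The genes called by limma were S100a8 and S100a9, which encode the calcium-binding calprotectin chains, and Retnlg, which encodes a resistin-like protein. S100a8 was at 180, 428 and 88.1 FPKM in the CD11b+ libraries and at 0.619 to 1.04 in the CD11b- libraries (6.69 ± 0.49; limma, adjusted p = 0.00566). S100a9 was at 221, 545 and 74.5 against 0.179 to 1.26 (7.04 ± 0.63; limma, adjusted p = 0.0137), and Retnlg at 13.9, 18.6 and 10.2 against 0 to 0.0526 (3.87 ± 0.27; limma, adjusted p = 0.00560). Ly6g, which encodes a target of the Gr-1 antibody, was at 1.34, 2.51 and 1.96 FPKM against 0 to 0.152 (1.47 ± 0.23; limma, adjusted p = 0.0997) and had no read in PMs. DESeq2 called Ly6g higher (adjusted p = 0.00115), and edgeR did not (adjusted p = 0.231). The summed FPKM of the 12 markers was 424, 1010 and 176 in the CD11b+ libraries, 1.91 to 3.27 in the CD11b- libraries and 284 to 305 in PMs. None of the 12 was at 0 in all CD11b+ libraries, and 9 of the 12 had replicate 2 above 1 above 3. Replicate 2 exceeded replicate 3 by 1.28 times for Ly6g, 1.83 for Retnlg, 4.86 for S100a8, 7.32 for S100a9 and up to 55.6 for Il1r2, an interleukin 1 receptor gene, and Stfa2l1 had no read in replicate 3. The same 3 markers were called without CD11b+ replicate 2 and without replicate 3. The part of neutrophil RNA in the levels of the granule genes was not tested.

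The 15 monocyte and macrophage markers had a summed FPKM of 353, 330 and 171 in the CD11b+ libraries and 59.6 to 69.9 in the CD11b- libraries, against at least 25872 in each PM library. Limma called 0 of the 14 tested, with 12 higher at an unadjusted p below 0.05, DESeq2 called 12 of 14 higher and edgeR 2 of 13, Csf1r and C1qb. Without CD11b+ replicate 3 limma called 2, Csf1r and Lyz2. For 12 of the markers the B cell groups did not overlap. Csf1r, a growth factor receptor of these cells, was at 3.56, 3.19 and 1.36 FPKM against 0.130 to 0.223, and C1qb, a complement chain, at 27.1, 22.9 and 24.1 against 3.5 to 7.97. Erythroid markers summed to 47.6, 49.97 and 38.9 FPKM in CD11b+ replicates 1, 2 and 3 and to 2.22 to 25.5 in the CD11b- libraries. Their sums thus ranked the CD11b+ libraries as the granule genes did, over a narrower range, and so did the summed FPKM of the regulators. Basophil, mast cell and eosinophil markers summed to 6.24, 5.20 and 16.5 in CD11b+ replicates 1, 2 and 3 and to 0.253 to 1.99 in the CD11b- libraries. T and NK cell markers summed to 15.9 to 22.3 and 11.6 to 21.1 FPKM, most of it Lck (11.6 to 19.4 in all B cell libraries). Of that list Nkg7, a granule protein gene of cytotoxic cells, was at 2.68, 2.47 and 0.0310 FPKM in the CD11b+ libraries and at 0 to 0.0328 in the CD11b- libraries. DESeq2 called 2 of 7 higher, Nkg7 and Cd4 (adjusted p = 0.00604 and 0.0289), and limma called 0 of the 8 tested, 1 of them having an unadjusted p below 0.05, and Nkg7 alone without CD11b+ replicate 3. B cell markers were level, with sums of 22474 to 24698 FPKM in the CD11b+ and 23557 to 24228 in the CD11b- libraries, and 0 of 12 were called by limma, edgeR or DESeq2 or had an unadjusted p below 0.05. The part of these cell types in the granule gene levels was not tested either.

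**Figure D5:**
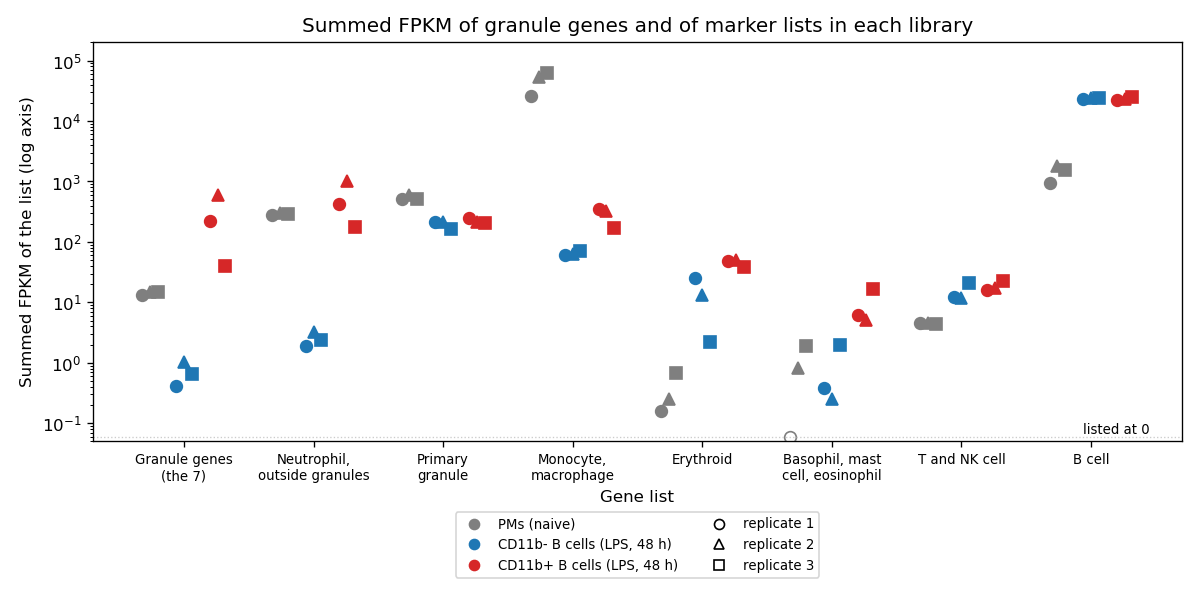
Summed FPKM (log axis) of the 7 granule genes and of 7 marker lists in each library; colors are the groups and symbols the replicates. Granule genes (39.8 to 597) and neutrophil markers outside granules (176 to 1010) rank the CD11b+ libraries alike. Erythroid markers share this order over a narrower range (38.9 to 49.97). The B cell markers lie between 22474 and 24698 in the CD11b+ libraries.

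Over the 9 libraries, the profile of each granule gene was set against the mean log2(FPKM + 1) of the other six. Pearson's r was 0.914 to 0.975 for Ltf, Camp, Ngp, Lcn2, Mmp8 and Cd177, and 0.275 for Mmp9, whose level was highest in PMs. Among 11876 other genes with a mean of at least 1 FPKM in CD11b+ B cells, the 8 most like the mean of the 7 members were Msc (r = 0.961), S100a8 (0.954), S100a9 (0.943), Gm24878 (0.941), Gm12407 (0.940), Fcnb (0.940), Klk1 (0.932) and Asprv1 (0.932). The points of these correlations share libraries and fall into 3 groups, so r describes mainly which group was high. Msc, which encodes a helix-loop-helix repressor found in activated B cells, was at 1.69, 1.82 and 0.368 FPKM in the CD11b+ libraries and at most 0.0123 elsewhere. Gm24878 and Gm12407, a small nuclear RNA gene and a pseudogene, had reads only in CD11b+ replicates 1 and 2.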

How the data were processed

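The 9 libraries (SMART-seq HT, read pairs) were assigned to 3 groups from the labels. The authors trimmed reads (Trim Galore 0.4.4, Trimmomatic 0.36, cutadapt 1.16), mapped them to GRCm38 with STAR 2.7.2b and counted them with featureCounts 1.6.1, per the submitters' notes and the methods. The labels also name GRCm39, and 1462 of 52046 matched genes start where GENCODE M21 puts them, so positions are those of GENCODE M21. The sources used here do not say whether counting used strand. The deposited FPKM table was used. The authors' second table, a normalized signal per gene (scaled by size factors) for 11063 genes selected at a p-value of 0.05, and its cluster numbers were not tested; the methods name DESeq2 1.20.0 for differential expression. FPKM times exon length gave whole reads for 100% of values (tolerance 0.05).

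Limma 3.58.1 (R 4.3.3; lmFit, eBayes with trend, two-sided) was run on log2(FPKM + 1) of the 6 libraries compared, for genes with a mean of at least 0.05 FPKM, with p-values adjusted by the Benjamini-Hochberg method and a threshold of 0.05. A fold change on this scale understates that of low genes. Single values had exact permutation tests, and read ratios exact 95% intervals. The alternatives, among them edgeR 4.0.16 and DESeq2 1.42.0 on the whole reads, are described at the end. The 7 genes and 10 lists (108 genes) were chosen with earlier results of these data known. All members and regulators were named, and from each other list at most the 4 genes with the largest difference between B cell groups among those with a mean of at least 1 FPKM in either group, as far as a result needed them; Itgam was named as a sort marker, and Prss57, Il1r2, Stfa2l1 and Cd4 after their values were seen. The 8 genes most like the members were named by Pearson's r, without immunoglobulin segments.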

Additional observations from a re-analysis of the deposited data

How the results depend on the processing

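In CD11b+ against CD11b- B cells, limma called 0 of the 7 genes higher, and 3 with a pseudocount of 0.1 (0.156% of all genes), 1 with a minimum mean of 1 FPKM (0.259%) and 2 with all 9 libraries in one fit (0.142%). edgeR called 6 (0.269%), edgeR without a filter 7 (1.11%) and DESeq2 7 (1.45%), and leaving out single libraries gave 0 to 5 (0.0137% to 0.187%), the highest without CD11b+ replicate 3. A replicate block by the numbers in the titles called 1 gene (0.0735%). Libraries with the same title number had correlations of 0.203, -0.0115 and 0.167, so these numbers were not taken to pair the libraries. The 2 pairs at 0.203 and 0.167, the highest of the 9 correlations, also share a number in the descriptions, and the block by those numbers called 0 (0% of all genes). Only these 2 pairs set the difference in that block, because CD11b+ replicate 2 and CD11b- replicate 2 have no partner in it. As it called no gene at all, its 0 says nothing about the 7 genes.

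In CD11b+ B cells against PMs, 3 genes were higher (21.5% of all genes), 5 with all 9 libraries in one fit (25.7%), 6 with edgeR without a filter (8.73%), 5 with DESeq2 (16.1%) and 3 to 6 without single libraries (14.7% to 22.2%). The 1 lower gene, Mmp9, was lost (0 genes) with a pseudocount of 0.1, without a filter on FPKM, with eBayes without a trend and with edgeR (4.24% to 18.1% of all genes lower), with differences of -1.65 to -2.25, and the count was 0 to 1 without single libraries. In CD11b- B cells against PMs, 3 genes were lower (11%), 1 with all 9 libraries in one fit (12.3%) and 2 to 3 without single libraries (8.01% to 11.8%), and median-ratio scaling turned the split over all genes from 5404 higher and 2306 lower to 3330 and 3152. The near-zero difference of Ngp there (0.02) turned to -0.11 with median-ratio scaling, -0.21 with quantile normalization, -0.43 with edgeR, -0.35 with edgeR without a filter and -0.46 with DESeq2, and lay between -0.10 and 0.20 without single libraries. The cause of these changes was not tested. Marker lists and read ratios without CD11b+ replicate 2 or 3 were added after seeing the data. Of the other values of single genes under an alternative, 286 kept direction and side of the threshold, 46 passed it and 15 lost it.

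A minimum of 1 FPKM and edgeR's filter left some genes without a value. Levels in CD11b- B cells rest on few reads, 3 libraries per group limit each test, and counting intervals leave out amplification and the spread between libraries.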
